A study of Mus musculus with 4 samples.

Results

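Rac1 and Abl1 are 2 of the 1593 genes in the authors' deposited table for 46C, a line of mouse embryonic stem cells in which green fluorescent protein reports Sox1 expression. They were taken by symbol, and each had 1 row (Rac1, ENSMUSG00000001847; Abl1, ENSMUSG00000026842). RNA was sequenced from 2 libraries of the PC group, kept for 24 h in serum with 1 µM PD0325901 plus CID755673, and from 2 libraries of the PD group, kept for 24 h in serum with 1 µM PD0325901 and no CID755673. PD0325901 inhibits MEK, the kinase that activates ERK, so the cells of all 4 libraries received a MEK inhibitor. CID755673 inhibits protein kinase D. The treatment label of each sample puts CID755673 in PC, while the series text names the groups in an order that could be read the other way, and the sample labels were followed. The labels give no dose of CID755673, 46C is a single line, and no label says whether the libraries of a group came from separate cultures. Any p-value therefore measures the spread between these libraries alone, and that spread may be technical.

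Rac1 encodes a small GTPase that controls the actin cytoskeleton. In its GTP-bound form it binds the WAVE complex and p21-activated kinases and drives branched actin assembly at the cell edge. Exchange factors load it with GTP, GTPase-activating proteins switch it off, and GDP-dissociation inhibitors hold it in the cytosol. Abl1 encodes a non-receptor tyrosine kinase that binds actin and moves between cytoplasm and nucleus. It acts on cell shape through the adaptors Crk and Nck and the Abl interactor proteins, some of which belong to the WAVE complex, and in the nucleus it acts on the p53 relative p73.

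The deposited rows are per gene and do not separate a gene's transcripts, and how reads were assigned to transcripts is not given. Rac1 lies on the minus strand of chromosome 5 at chr5:143503634-143528036 in GENCODE M21 (GRCm38), a later build than the mm9 named in the submitters' processing notes, and has 2 protein-coding transcripts. They differ by 1 coding exon of 57 bases (19 codons) at chr5:143509597-143509653, whose inclusion gives the splice form Rac1b, known from human cells as a variant that cycles fast to the GTP-bound state. The exon is shown because no value below can separate Rac1 from Rac1b. Its bases are in capitals and the 12 coding bases on either side are in lower case.
Rac1 alternative exon: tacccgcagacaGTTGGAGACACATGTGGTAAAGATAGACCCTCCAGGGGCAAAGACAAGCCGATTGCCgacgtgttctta
Abl1 lies on the plus strand of chromosome 2 at chr2:31688376-31804227 and has 4 protein-coding transcripts, which begin at different positions. RefSeq gives 2 promoter windows for Abl1, which overlap. The 250 bases before the more upstream of these starts are at chr2:31759689-31759938 (GRCm38.p6, plus strand). This stretch lies inside the gene as placed above, and the bases before the gene's first start at chr2:31688376 were not examined. The 250 bases are shown with the GC box GGGCGG, a motif bound by Sp-family factors, in capitals.
Abl1 promoter: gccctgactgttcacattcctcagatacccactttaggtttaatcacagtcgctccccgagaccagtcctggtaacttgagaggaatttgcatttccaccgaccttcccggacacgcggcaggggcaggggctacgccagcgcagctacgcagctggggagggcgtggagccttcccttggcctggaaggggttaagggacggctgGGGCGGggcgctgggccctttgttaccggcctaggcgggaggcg
On either strand the GC box occurs 1 time in this stretch, and 32.7% of the 32851 RefSeq stretches of the same length hold it. The stretch is 63.2% G and C with 16 CpG dinucleotides, against medians of 52.4% and 6 over all such stretches. The CCAAT box (CCAAT) is not in it on either strand and is in 33.8% of all stretches. The TATA box (TATAAA) is not in it and is in 12.4% of all stretches. The cAMP response element (TGACGTCA) is not in it and is in 1.5% of all stretches. The RefSeq promoter table has no entry for Rac1.

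Values are normalized reads, meaning reads divided by the authors' size factor for the library, and differences are PC minus PD on the log2(normalized reads + 1) scale. The table had been selected on this same comparison. Every listed gene has a log2 fold change of 1 or more in either direction, the highest p-value is 0.0498, and the listed genes are 5.07% of the 31432 genes that the authors tested. Rac1 and Abl1 were in turn picked for this report from earlier results of these data. Their levels and differences are therefore descriptions, and no test of either gene is given. In a bulk culture, fewer cells of a type and less RNA per cell cannot be told apart.

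Rac1 was about 3 times as abundant with CID755673 as without it. It had 8630.3 normalized reads in PC replicate 1 and 8590.1 in PC replicate 2, against 2624.9 in PD replicate 1 and 3015.2 in PD replicate 2. Both PC libraries lay above both PD libraries with no overlap, which holds in either direction for 99.7% of the listed genes, as the table was selected on this contrast. The means were 8610.2 ± 28.4 in PC and 2820.1 ± 276.0 in PD (SD, n = 2 each), a ratio of 3.05 and a log2 difference of 1.61. The lowest PC library stood 2.85-fold above the highest PD library.

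Abl1 showed a difference of similar size. It had 9163.8 normalized reads in PC replicate 1 and 9822.5 in PC replicate 2, against 3712.9 in PD replicate 1 and 3417.6 in PD replicate 2. The groups again did not overlap. The means were 9493.2 ± 465.8 in PC and 3565.3 ± 208.8 in PD (SD, n = 2 each), a ratio of 2.66 and a log2 difference of 1.41. The lowest PC library stood 2.47-fold above the highest PD library.

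**Figure D1:**
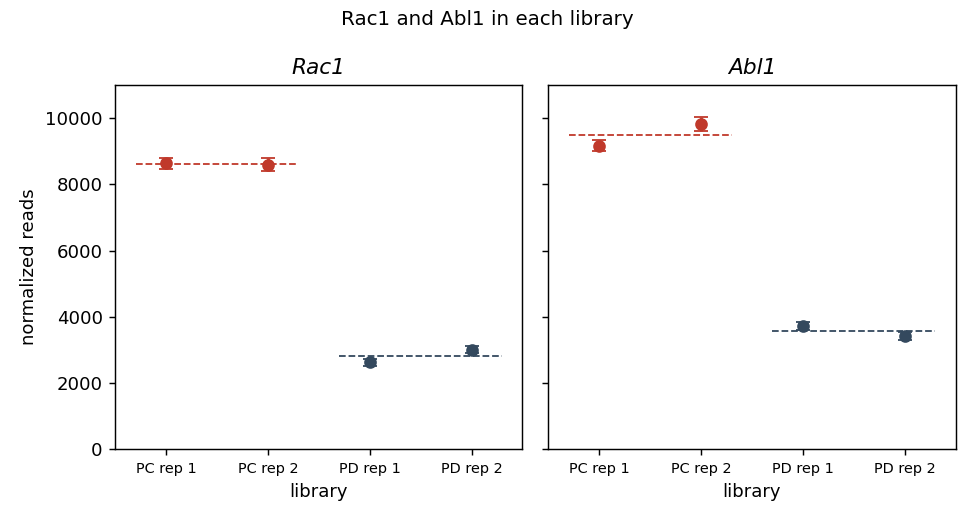
Normalized reads (y axis, from 0) of Rac1 and Abl1 in each of the 4 libraries (x axis), with 95% Poisson counting intervals as bars and group means as dashed lines. PC libraries (red) lie at 8590.1 or more and PD libraries (dark) at 3712.9 or less.

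Both genes rest on 2707 reads or more in every library, so counting error is small beside the gap between the groups. Rac1 had 10417 and 7221 reads in PC replicates 1 and 2, and 2707 and 3290 reads in PD replicates 1 and 2. Abl1 had 11061 and 8257 reads in PC replicates 1 and 2, and 3829 and 3729 reads in PD replicates 1 and 2. The 95% Poisson interval of Rac1 ran from 8465.3 to 8797.6 normalized reads in PC replicate 1 and from 8393.1 to 8790.6 in PC replicate 2, so the PC libraries were within counting error of each other. In PD it ran from 2527.0 to 2725.7 in replicate 1 and from 2913.1 to 3120.1 in replicate 2, so the PD libraries differed by more than counting error. For Abl1 the intervals of the 2 libraries did not overlap in either group. They ran from 8993.8 to 9336.2 and from 9611.8 to 10036.7 in PC, and from 3596.3 to 3832.4 and from 3308.8 to 3529.1 in PD. Such intervals cover counting error only, since reads are not independent molecules.

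The replicates did not deviate in the same direction for the 2 genes. Within a library, the ratio of Rac1 to Abl1 needs no size factor. It was 0.94 and 0.87 in PC replicates 1 and 2, and 0.71 and 0.88 in PD replicates 1 and 2. The groups overlapped, so the larger log2 difference of Rac1 is not separated from that of Abl1 by the spread between libraries. The ratio compares reads and not molecules, because the transcripts differ in length.

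Both were among the more abundant genes of the table. By mean normalized reads over the 4 libraries Abl1 was at rank 13 and Rac1 at rank 16 of the 1593 listed genes, whose median was 55.1 normalized reads. Of the 613 listed genes that were higher in PC, 6 had a mean above 5000 normalized reads, and Abl1 and Rac1 were at ranks 5 and 6 of them. Per kilobase of the longest protein-coding transcript in GENCODE M21 (4159 bases for Rac1 and 6327 for Abl1), the mean level of Rac1 was 2070 normalized reads in PC and 678 in PD, and that of Abl1 was 1500 in PC and 563 in PD. On the same per-kilobase scale the median listed gene was at 22.8 in PC and 32.9 in PD, over the 1205 genes with such a length. Rac1 held rank 14 in PC and 57 in PD on that scale, and Abl1 rank 20 in PC and 73 in PD. With the shorter coding transcript of Rac1 (2325 bases) its level would be 3703 per kilobase in PC and 1213 in PD.

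In size of difference they were not extreme. By log2 difference Rac1 was at rank 226 and Abl1 at rank 302 of the 613 listed genes that were higher, whose median was 1.40. In the authors' deposited table Rac1 had a log2 fold change of 1.61 with p = 8.7e-96 and a false discovery rate of 1.6e-92. In the authors' deposited table Abl1 had a log2 fold change of 1.41 with p = 1.1e-97 and a false discovery rate of 2.3e-94. The authors' deposited false discovery rates and p-values imply 31432 genes tested, a number that fitted 88.3% of the listed genes. By the same reckoning the authors' p-values of Rac1 and Abl1 stood at ranks 17 and 15 of the 31432. Among the 1593 listed genes these p-values stood at ranks 16 and 14. They are the values that placed the genes in the table.

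**Figure D2:**
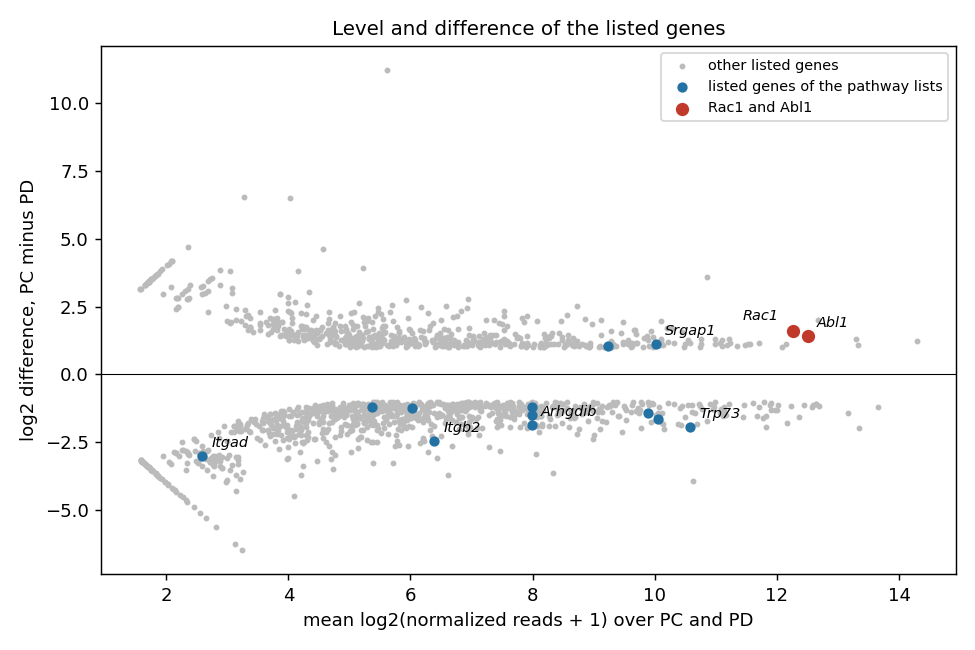
Log2 difference PC minus PD (y axis) against the mean log2(normalized reads + 1) of both groups (x axis) for the 1593 listed genes, with Rac1 and Abl1 in red and the 12 other listed genes of the pathway lists in blue. No listed gene lies between -1 and 1, the limit of the table, and Rac1 and Abl1 lie at the abundant end of the higher genes.

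The origin of part of the Rac1 reads is uncertain. In GENCODE M21 the last exon of Rac1 overlaps exons of Daglb, a diacylglycerol lipase gene on the other strand, over 2309 bases (chr5:143503634-143505942), which is 54.8% of the exon bases of the Rac1 coding transcripts. For the coding transcript with the alternative exon, which ends earlier, the overlap is 461 bases (19.8%). The sources used here do not give the strand setting of the counting, so reads of both genes in this stretch cannot be told apart. Daglb is not among the listed genes and is not analysed here. No other gene's transcripts matched a Rac1 coding transcript at 95% identity or more over at least 100 bases. The closest relatives were Rac3, with 78.1% identity over 593 bases, and Rac2, with 79.7% over 536 bases.

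Abl1 had no such overlap. No exon of another gene overlapped its coding transcripts, and no other gene's transcripts reached 95% identity over 100 bases. Its paralog Abl2 matched at 80.7% over 1399 bases.

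The genes that act with Rac1 and Abl1 were taken from 9 lists that hold 243 other genes. Of these, 12 were in the authors' deposited table, which is 4.9%, close to the 5.07% of all genes tested. Of the 12, 2 were higher and 10 lower in PC, with a median log2 difference of -1.46, against -1.17 over all 1593 listed genes. limma, adjusted by Benjamini-Hochberg for the 31432 genes tested, called 2 of them higher and 7 lower at an adjusted p under 0.05. Among all listed genes limma called 31.1%, with 11.2% higher and 19.8% lower. All listed genes had already been selected on this contrast, and limma's prior spread was estimated from them alone, so these p-values are not independent of the selection. No gene with the direction of Rac1 and Abl1 was listed among the other 22 GTPases of the Rac1 family or the other 33 Abl-related genes, and Rac2, Rac3, Cdc42, Rhoa and Abl2 are not analysed here.

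Of 42 exchange factors of these GTPases, 3 were listed. Dock3, an exchange factor that activates Rac1, rose and had 932.9 and 798.2 normalized reads in PC against 437.3 and 395.9 in PD (log2 difference 1.05, SE 0.13, limma, Benjamini-Hochberg adjusted p = 0.031). Arhgef28, an exchange factor for RhoA, fell and had 588.2 and 573.4 in PC against 1473.0 and 1638.7 in PD (log2 difference -1.42, SE 0.10, limma, Benjamini-Hochberg adjusted p = 0.014). Dock8, an exchange factor for Cdc42 known from immune cells, had 23.2 and 29.7 in PC against 76.6 and 48.6 in PD and missed the threshold of 0.05 (limma, Benjamini-Hochberg adjusted p = 0.50). With a pseudocount of 0.1 the call of Dock3 was lost (limma, Benjamini-Hochberg adjusted p = 0.051). The groups did not overlap for any of the 3, as for 99.7% of all listed genes. Exons of Dock3 overlap those of 4930524O07Rik on the other strand.

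Of 33 GTPase-activating proteins and GDP-dissociation inhibitors, 2 were listed and they moved in opposite directions. Srgap1, a GTPase-activating protein that works downstream of Slit and Robo, rose and had 1498.7 and 1584.6 normalized reads in PC against 710.8 and 691.9 in PD (log2 difference 1.13, SE 0.09, limma, Benjamini-Hochberg adjusted p = 0.014). Arhgdib, a GDP-dissociation inhibitor of these GTPases best known from blood cells, fell and had 135.9 and 128.5 in PC against 473.2 and 494.9 in PD (log2 difference -1.87, SE 0.13, limma, Benjamini-Hochberg adjusted p = 0.013). Exons of Arhgdib overlap those of Pde6h on the other strand over 136 bases, and those of Srgap1 overlap Gm48804 on the same strand over 131 bases.

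Of 44 effectors of Rac and genes of actin assembly, 2 were listed, both lower. Pak6, a p21-activated kinase, fell and had 145.8 and 155.8 normalized reads in PC against 445.1 and 411.5 in PD (log2 difference -1.50, SE 0.13, limma, Benjamini-Hochberg adjusted p = 0.014). Was, the Wiskott-Aldrich syndrome protein of blood cells, had 41.4 and 41.6 in PC against 85.3 and 116.4 in PD and missed the threshold of 0.05 (limma, Benjamini-Hochberg adjusted p = 0.18). No other gene of that list, which holds WAVE proteins and the other p21-activated kinases, and 0 of 12 NADPH oxidase genes were in the table.

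Among the other 33 genes of the Abl list 1 was listed. Trp73, which encodes the p53 relative p73 that Abl1 phosphorylates, fell and had 768.8 and 793.5 normalized reads in PC against 2865.4 and 3105.1 in PD (log2 difference -1.93, SE 0.09, limma, Benjamini-Hochberg adjusted p = 0.011). Abl1 and Trp73 thus differed in opposite directions in the same libraries. Of 25 Src family and focal adhesion genes, Ptk2b, a kinase related to focal adhesion kinase, was listed and fell, with 617.2 and 585.3 in PC against 1788.1 and 1946.6 in PD (log2 difference -1.63, SE 0.10, limma, Benjamini-Hochberg adjusted p = 0.012). Of 11 genes of protein kinase D and its actin-related substrates, 0 were listed. Exons of Trp73 overlap those of its antisense gene Trp73os over 280 bases.

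Of 26 integrin genes 3 were listed, all lower and all of the beta-2 family of leukocyte integrins. Itgb2, the beta-2 chain, fell and had 29.0 and 41.6 normalized reads in PC against 170.7 and 224.5 in PD (log2 difference -2.46, SE 0.28, limma, Benjamini-Hochberg adjusted p = 0.026). Itgal, the alpha chain that pairs with it in LFA-1, fell and had 169.0 and 165.4 in PC against 377.2 and 389.5 in PD (log2 difference -1.19, SE 0.12, limma, Benjamini-Hochberg adjusted p = 0.020). Itgad, another alpha partner whose exons overlap those of 4 other genes, had 0 and 3 reads in PC against 18 and 16 reads in PD and missed the threshold of 0.05 (limma, Benjamini-Hochberg adjusted p = 0.32).

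**Figure D3:**
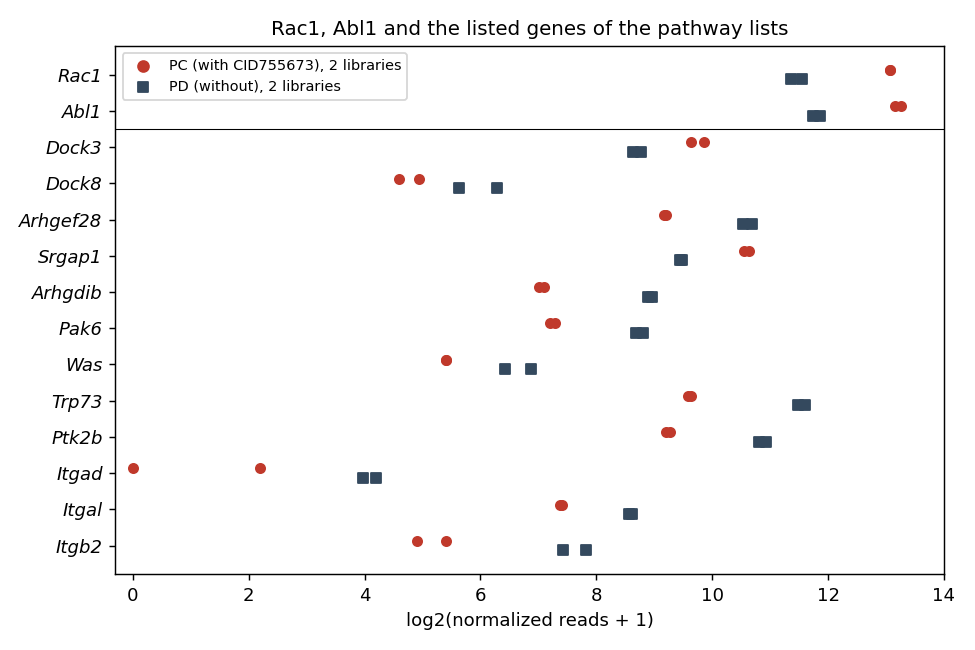
Log2(normalized reads + 1) (x axis) of Rac1, Abl1 and the 12 other listed genes of the pathway lists (rows), with 2 PC libraries as red circles and 2 PD libraries as dark squares. In each of the 14 rows the circles and squares do not overlap, as in 99.7% of the listed genes, and the circles lie to the right for Rac1, Abl1, Dock3 and Srgap1.

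The 9 calls among these 12 genes were lost when a library was left out. limma called 0 of them with any 1 of PC replicate 1, PC replicate 2, PD replicate 1 or PD replicate 2 left out (10 or 11 of 12 had an unadjusted p under 0.05), and 0 without the size factors (12 of 12 had an unadjusted p under 0.05). The directions were kept, as the selection of the table nearly fixes.

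By the pathway annotation in the deposited table, Rac1 carried 39 KEGG terms and Abl1 9, of which 5 were shared: axon guidance, neurotrophin signalling, Ras signalling, pathways in cancer and viral myocarditis. These terms were looked at after the values had been seen, so their counts are descriptions, to be read against the 61.5% of all listed genes that were lower and the 31.1% that limma called (11.2% higher and 19.8% lower). Of the 8 other listed genes of axon guidance 5 were higher and 3 lower, and limma called 3 higher and 1 lower. The 3 were Srgap1, Slit2 and Pik3r3. Slit2, a secreted guidance ligand of Robo receptors, rose and had 1623.0 and 1644.0 normalized reads in PC against 836.8 and 724.0 in PD (log2 difference 1.07, SE 0.11, limma, Benjamini-Hochberg adjusted p = 0.019). Pik3r3, a regulatory subunit of phosphoinositide 3-kinase, rose and had 2840.9 and 3120.3 in PC against 1367.3 and 1374.7 in PD (log2 difference 1.12, SE 0.09, limma, Benjamini-Hochberg adjusted p = 0.014), with 24.3% of its exon bases shared with Gm49337 on the same strand. Of the other 4 shared terms, Ras signalling had 3 other listed genes higher and 16 lower, with 1 called higher and 5 lower. Pathways in cancer had 7 higher and 31 lower, with 3 called higher and 14 lower. Neurotrophin signalling had 2 higher and 5 lower, with 2 called in each direction. Viral myocarditis had 4 higher and 8 lower, with 2 called higher and 5 lower. Some genes stand in several of these terms. Of the terms that Rac1 carries and Abl1 does not, actin cytoskeleton, Rap1 signalling, focal adhesion and adherens junction were picked by name. The rest were not counted, so these counts are descriptions too. In the actin cytoskeleton term Rac1 was the 1 listed gene with higher values. The other 14 were lower, and limma called 6 of them, where 61.5% of all listed genes were lower and 19.8% were called lower. The 14 include FGF ligands such as Fgf5 and Fgf15 as well as Pak6, Was and the integrins above. The Rap1 signalling term had 16 other listed genes, 1 higher and 15 lower. Of these limma called 6, all lower, where 19.8% of all listed genes were called lower. Focal adhesion had 10 other listed genes, 1 higher and 9 lower, with 3 called lower. Adherens junction had 3 other listed genes, all lower, with 1 called lower.

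Genes with the pattern most like that of each member were found by the Euclidean distance between log2 profiles centred on the gene's mean over the 4 libraries. The table was selected for a difference between the groups, so many listed genes share this shape, and the distances are a description. For Abl1, 4 of the 5 nearest were Dmrt3, Zfp521, Ntrk3 and Camk2n1, at distances from 0.044 to 0.10. Dmrt3, a transcription factor of the DM domain family, had 265.1 and 287.9 normalized reads in PC against 103.8 and 98.1 in PD, and in both genes PC replicate 2 was above PC replicate 1 and PD replicate 2 below PD replicate 1. Ntrk3, the receptor of neurotrophin-3, had 338.8 and 347.4 in PC against 136.7 and 130.1 in PD.

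For Rac1 the 5 nearest were Adgra2, AC140409.3, Rgs22, 1810020O05Rik and Gad2, at distances from 0.141 to 0.151, farther than those of Abl1. AC140409.3 had only 37.3 and 35.7 normalized reads in PC against 10.7 and 13.7 in PD. 1810020O05Rik had 99.4 and 89.2 in PC against 30.1 and 34.8 in PD. At such levels the replicate pattern is poorly measured, and both missed the threshold of 0.05 (limma, Benjamini-Hochberg adjusted p = 0.26 and 0.087). Adgra2, an adhesion G protein-coupled receptor, had 1403.4 and 1378.7 normalized reads in PC against 449.9 and 547.1 in PD, with PD replicate 2 above PD replicate 1 as in Rac1. Rgs22, a regulator of G-protein signalling, had 319.8 and 333.1 in PC against 103.8 and 104.5 in PD. Gad2, which makes the transmitter GABA, had 215.4 and 236.7 in PC against 63.0 and 72.4 in PD. Rac1 and Abl1 were 0.311 apart. Abl1 was at rank 48 of 1592 in nearness to Rac1, and Rac1 at rank 99 of 1592 in nearness to Abl1. Exons of 1810020O05Rik overlap those of E230015B07Rik on the other strand over 52.3% of their bases, and those of Adgra2 overlap Brf2 over 73 bases.

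**Figure D4:**
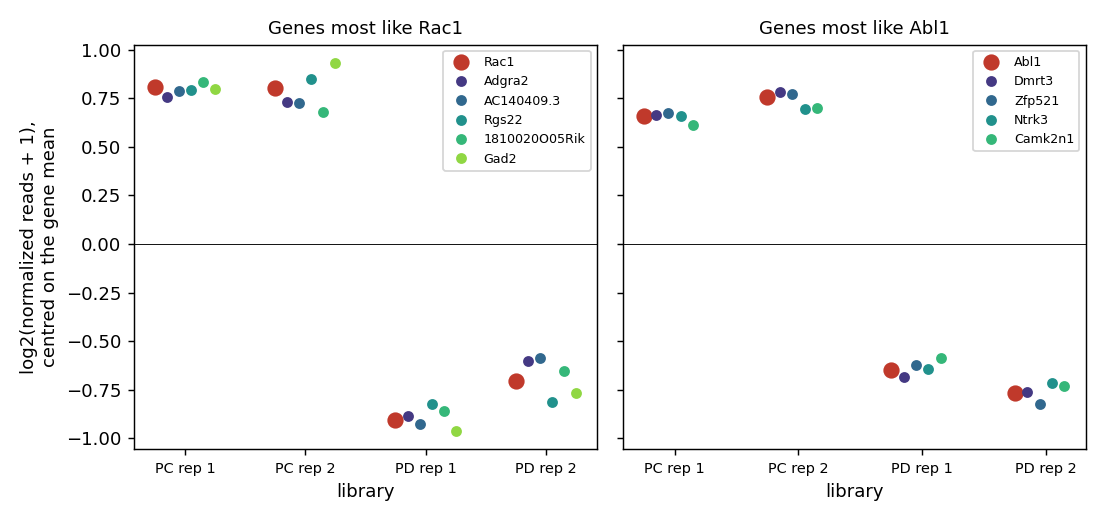
Log2(normalized reads + 1) centred on each gene's mean (y axis) in the 4 libraries (x axis) for Rac1 and Abl1 (large red points) with 5 genes near Rac1 and 4 near Abl1 (small points, shifted sideways for view). The points of Dmrt3 and the other 3 lie closer to Abl1 than those of Adgra2 and the other 4 lie to Rac1.

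The label of the cultures could be checked only in part, because 1 of 9 embryonic stem cell markers, Utf1, was listed. Utf1 had 1787.0 and 1893.8 normalized reads in PC against 6644.3 and 7460.2 in PD. Of 36 markers of other cell types 10 were listed (0 of 5 for neural progenitors), where 5.07% of all genes tested were listed. Their summed level was 2322.1 to 2507.8 normalized reads in PC and 4868.8 to 4907.8 in PD. Most of this sum came from the endothelial markers Tek and Kdr, which together had 1498.7 and 1334.7 in PC against 3342.5 and 3526.6 in PD. Of the 10 listed markers, the endoderm markers Gata6 and Sox17 were higher in PC. The other 8 were lower, as were 61.5% of all listed genes. None of the listed markers of other types was at 0 in all 4 libraries. The part of these cell types in the values of Rac1 and Abl1 was not tested.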

How the data were processed

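RNA-seq of 2 PC and 2 PD libraries was used, grouped by the titles and treatments in the labels. The deposited library columns are log2 values: after undoing the log and subtracting 1, 100.0% of values per library were whole multiples of a fixed step (tolerance 0.001 reads), which gives reads over size factors of 1.207 and 0.8406 in PC and 1.0313 and 1.0911 in PD. Per the file headers, the p-values in the deposited table come from a test by the authors. Bowtie 0.12.2 and mm9 are named, with no role, per the submitters' processing notes. The sources used here do not give the counting, annotation or normalization tools. Reads on the listed genes were 433684 to 683777 per library. The full depth is unknown.

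Group means of log2(value + 1) were compared with limma 3.58.1 (R 4.3.3), using a trended prior and genes with a mean of at least 1 normalized read, and adjusted (Benjamini-Hochberg, called under 0.05) over the 31432 genes that the deposited false discovery rates and p-values imply. The prior came only from genes selected in these samples. The procedure was tested on simulated data in which most genes were unchanged and the changed ones were all raised. That test does not cover genes selected for a difference, as used here. Rac1, Abl1 and the lists were chosen with earlier results of these data known. Named are Rac1, Abl1, every listed gene of the lists and the 5 nearest genes to each, except that some of these genes are not reported here. Genes named for their KEGG terms were added after their values had been seen. Sequences came from RefSeq (GRCm38.p6) and GENCODE M21. The alternatives were other pseudocounts and filters, voom, no size factors, a replicate block and leaving out each library.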

Additional observations from a re-analysis of the deposited data

How the results depend on the processing

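The log2 difference of Rac1 was 1.61 with a pseudocount of 0.1 or 10 and with the replicate block, 1.54 without size factors, and 1.51 to 1.71 with 1 library left out. That of Abl1 was 1.41 with either pseudocount and the block, 1.34 without size factors, and 1.35 to 1.47 with 1 library left out. limma called 495 listed genes, 64 without size factors, 33 to 61 with 1 library left out, 2 at an adjusted p under 0.01 and 1176 with the replicate block, while the authors' false discovery rate gave 1119. In the fits with a library left out, the single library of its group is taken to vary as the other group does. Same-numbered libraries did not deviate together (r = 0 over the 1593 genes), and the labels tie the numbers to nothing shared. Of 22 other named genes under 11 alternatives, 0 changed direction. With a pseudocount of 0.1 limma called 8 of the 12 list genes, Dock3 being lost. With the replicate block it called 11, Was and Itgad being added. Itgad had only 0 and 3 reads in PC against 18 and 16 reads in PD. The block leaves little spread between the 4 libraries from which to estimate error. All calls made with it, the 1176 included, therefore rest mostly on the prior from selected genes and add no evidence. Of the 5 genes nearest to each member, 4 were the same with a pseudocount of 0.1 and 3 with one of 10, a comparison chosen after seeing the data. Reads of Rac1 that may come from Daglb limit its values, and unlisted genes are not analysed here.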
